A study of Mus musculus with 2 samples.

Results

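The 10 genes described here are Bcl2, Bcl2l1, Bcl2l11, Mcl1, Bax, Bak1, Bid, Bad, Birc2 and Birc3, which belong to the BCL2 family and to the inhibitors of apoptosis (IAPs). They were chosen by name, as every non-control probe that the array files assign to one of these symbols, and all 10 were found among 27579 genes with usable probes, through 20 probes in all. Their transcripts were measured in embryonic fibroblasts (MEFs, cells of connective tissue cultured from mouse embryos) of C57BL/6J Lats2-/- mice (KO) and of C57BL/6J Lats2+/+ mice (WT). The cells had no treatment, and the genotype field of the labels spells the locus LAT2. The age of the embryos and the number of animals or cultures behind each RNA were not given in the sources used here. Both total RNAs shared each Agilent oligonucleotide array of the mouse genome, with the KO RNA in Cy5 and the WT RNA in Cy3 on 1 array and the dyes exchanged on the other. The 2 arrays count here as 1 replicate, a technical exchange of dyes on 1 RNA pair, so no test between genotypes was made. The labels do not say that both arrays carried the same RNA extracts. If they did, the spread between the arrays is hybridisation and dye error, and if not, it also holds variation between extracts.

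Proteins of the BCL2 family decide whether the outer membrane of mitochondria stays closed. The prosurvival members Bcl2, Bcl2l1 (Bcl-xL) and Mcl1 hold back the pore-forming effectors Bax and Bak1, and the BH3-only members Bid, Bad and Bcl2l11 (Bim) either occupy the prosurvival proteins or activate the effectors. Once the membrane opens, cytochrome c is released and caspases are activated. The IAPs Birc2 (cIAP1) and Birc3 (cIAP2) are ubiquitin ligases bound to TNF receptor complexes, where they restrain death signalling. Lats2 is a kinase of the Hippo pathway that phosphorylates the coactivators YAP and TAZ, the partners of TEAD transcription factors.

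Of the 10 members, Bcl2l1 and Bid stood higher in the RNA labelled KO, by 1.87-fold and 1.84-fold on their brightest probes. The other probes of Bcl2l1 read 1.55-fold and 1.38-fold, and Bid has a single probe. By brightest probe Bcl2 had the lowest ratio, at 77.9% of its WT level. That rank depended on the probe: a second probe of Mcl1 read 63.3% of WT. With the mean over probes, Mcl1 (log2 ratio -0.37) was lower than Bcl2 (-0.20). The brightest probes of Mcl1, Bax and Birc3 differed between the genotypes by less than the spread between arrays. No member reached 2-fold on both arrays, where 2.95% of the 15877 genes above background were called higher and 2.61% lower. At 1.5-fold, 2 members were called higher and 0 lower, beside 7.04% of all genes called higher and 7.17% called lower. To be called, a gene had to pass the threshold on each array with the same sign, and the genotype with more of it had to be flagged well above background by the scanner software on both. Values are log2 ratios of KO over WT unless a level is named, and a gene with several probes is given by its brightest one. The SD of a single array's log2 ratio, taken from the difference between both arrays over 22357 probes, was 0.137, and the mean of both had an SD of 0.0968. How far these SDs cover variation between cultures and animals is unknown, and in bulk RNA fewer cells of a type and less RNA per cell cannot be told apart.

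The direction of the targeted gene depended on the probe. On 3 of 4 Lats2 probes the RNA labelled KO was the higher one, against its label, with log2 ratios of 0.56, 0.56 and 0.63. These 3 lie close together (mm8 chr14, starting at 56644080, 56644108 and 56645246), and the first 2 overlap. They are thus not independent readings of the locus. The dimmest probe, further away at 56676512, was lower at -0.35 (-0.18 and -0.51). It passed the background flag for KO and WT alike. Its levels were 264 in KO and 299 in WT on the array with KO in Cy5, and 231 in KO and 330 in WT on the other. Which part of the locus the KO allele lacks was not given in the sources used here, so a probe outside that part checks nothing. Each direction below is therefore that of the RNA labelled KO against the RNA labelled WT. All 11 fibroblast markers measured were above background, and their summed level was 123320 to 125309 in the RNA labelled KO and 139889 to 164711 in the RNA labelled WT. Their log2 ratios ran from -1.19 (Fbn1) to 0.89 (Fn1), with a median of -0.41. The arrays differed for Fbn1, with -0.72 where KO was in Cy5 and -1.66 where it was in Cy3. Among markers of other cells, all 7 endothelial and all 6 muscle genes were not well above background. Of 6 erythroid markers 1 (Hbb-b1, 0.00) was above it. Of 6 neural markers 3 were, Tubb3 (-0.11), Nes (-0.30) and Elavl4 (0.40). Of 5 adipocyte markers, Pparg (log2 ratio 2.83) and Fabp4 (0.96) were above background, while Adipoq, Plin and Lep were not. The summed level of this list was 2536 to 2775 in KO against 587 to 605 in WT. Of 7 macrophage markers 3 were above background, with summed levels of 1707 to 1746 in KO and 1022 to 1065 in WT, while Ptprc, Emr1, Itgam and Fcgr1 were not. Of those 3, Lyzs had a log2 ratio of 1.105, Cd68 of 0.14 and Csf1r of -0.05. Of 6 epithelial markers only Krt19 (2.12) was above background, and the summed level was 639 to 705 in KO against 395 to 427 in WT. The part of these shifts in the members' ratios was not tested.

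Bcl2l1 encodes Bcl-xL, the prosurvival protein of mitochondria in many adult tissues, and was, with Bid, 1 of the 2 members called at 1.5-fold. By brightest probe their means differed by less than the SD of a mean, so these means have no order. Its brightest probe (NM_009743, mm8 chr2:152472336-152472395) gave a level of 809 units in the KO RNA against 379 in the WT RNA on the array with KO in Cy5. On the array with KO in Cy3 the levels were 724 in KO and 441 in WT. Both KO levels lay above both WT levels. The log2 ratios were 1.09 and 0.71, with a mean of 0.90. This probe was spotted 10 times on each array, and its ratios differed between spots by an SD of 0.047 on the first array and 0.045 on the other, less than the difference between the arrays. A difference between arrays as large as that one was seen in 5.23% of probes. Of all genes above background, 3.89% had a mean ratio at least as high.

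The other probes of Bcl2l1 are 48554 and 49099 bases from the brightest one, and the design assigns all 3 to the same transcript. They were dimmer and read lower ratios, 0.63 (0.64 and 0.62) and 0.47 (0.36 and 0.58). On both arrays all 3 probes were thus higher in the RNA labelled KO, 2 of them past 1.5-fold, and the size of the ratio depended on the probe. The offset used in the background step pulls the ratios of dim probes towards 0, and its part in these lower ratios was not tested.

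Bid is the BH3-only protein that caspase-8 cleaves, which links death receptors to mitochondria. Its only probe (NM_007544, mm8 chr6:120859065-120859124) read 3835 units in KO and 1917 in WT on the array with KO in Cy5, and 3613 in KO and 2130 in WT on the other. Both KO levels exceeded both WT levels, by log2 ratios of 1.0004 and 0.76 with a mean of 0.88. On the first array alone this is just past 2-fold, and 4.18% of genes above background were at least as high in the mean. The nearest probe of another gene lies 4794 bases away on the opposite strand, in Bcl2l13, another BCL2-like gene named here for its place. It read 0.40, less than Bid on both arrays (0.30 and 0.51).

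The promoters of Bcl2l1 and Bid are printed because these are the members called at 1.5-fold. RefSeq promoters of 300 bases (250 before and 50 after a transcription start, GRCm38.p6) were matched by symbol for all 10 members, 15 promoters in all. Capitals mark the TEAD motif GGAATG and the GC box GGGCGG, each searched on both strands, and these motifs do not overlap in the sequences shown. The Bcl2l1 promoter is that of the start furthest upstream of 3, at chr2:152831679-152831978 on the minus strand, and the Bid promoter lies at chr6:120916775-120917074 on the minus strand.
Bcl2l1: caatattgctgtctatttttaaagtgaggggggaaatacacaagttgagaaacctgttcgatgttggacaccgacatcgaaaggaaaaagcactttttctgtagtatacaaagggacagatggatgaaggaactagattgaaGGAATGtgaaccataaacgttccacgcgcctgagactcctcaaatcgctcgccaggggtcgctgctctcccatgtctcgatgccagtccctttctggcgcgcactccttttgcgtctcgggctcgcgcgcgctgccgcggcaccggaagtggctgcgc
Bid: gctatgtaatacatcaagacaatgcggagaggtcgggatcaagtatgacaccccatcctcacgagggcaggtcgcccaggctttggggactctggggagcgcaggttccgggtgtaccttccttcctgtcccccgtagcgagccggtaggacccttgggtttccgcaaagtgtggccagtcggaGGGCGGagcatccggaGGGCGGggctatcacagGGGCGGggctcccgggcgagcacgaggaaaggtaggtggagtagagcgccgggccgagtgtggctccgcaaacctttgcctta
The window of Bcl2l1 holds 1 TEAD motif and no GC box, and that of Bid holds 3 GC boxes and no TEAD motif. GGAATG is in 14.7% and GGGCGG in 35.7% of the 32851 mouse promoters of this length. Among the 15 promoters of the members 2 hold GGAATG (this one and that of Mcl1) and 8 hold GGGCGG. The other starts of Bcl2l1 hold neither, and which start the fibroblasts used was not measured. The AP-1 motif TGANTCA is in 7.81% of all promoters and in 0 of the 15, and the E-box CACGTG is in 7.15% of all promoters and in 1 of the 15, that of Bax. Both windows hold 22 CG dinucleotides, against a median of 7 over all promoters. Over the 15 promoters of the members the number ran from 1 (another start of Bcl2l1) to 44 (Bcl2), so 22 is not particular to the called genes. A match in these letters is a description of the sequence and not a measured site.

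**Figure D1:**
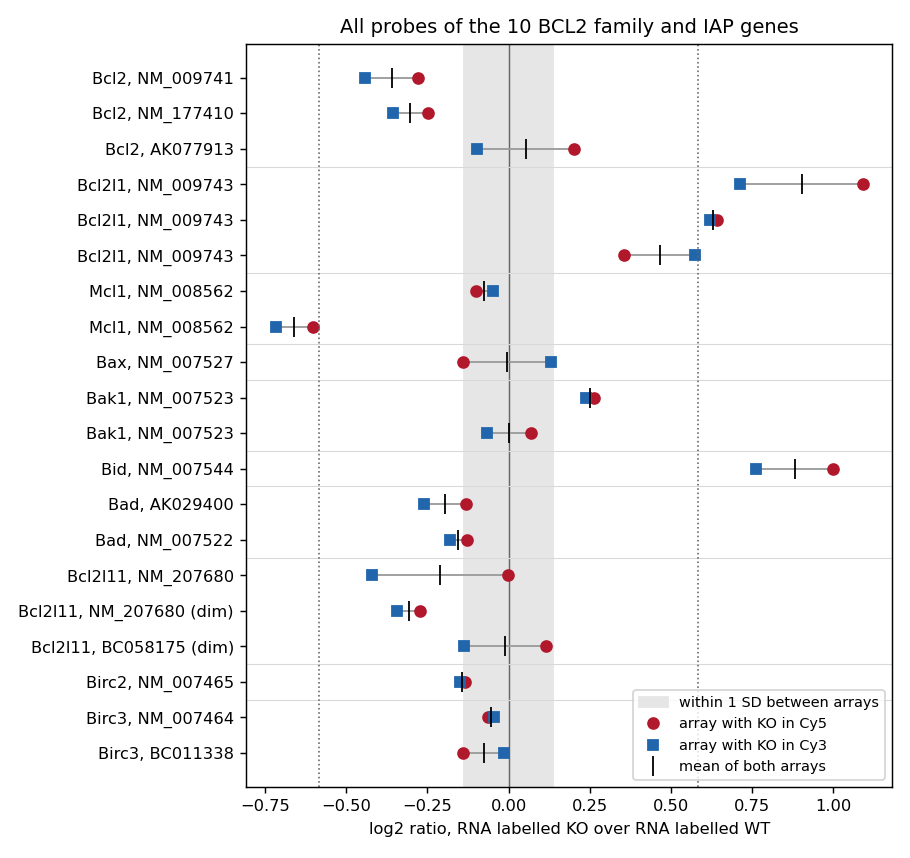
Log2 ratio of the RNA labelled KO over the RNA labelled WT for each of the 20 probes of the 10 genes, with a circle for the array with KO in Cy5, a square for the array with KO in Cy3 and a bar for their mean. The grey band is 1 SD of a single array (0.137) on each side of 0 and dotted lines mark 1.5-fold; the probes of Bcl2l1 and Bid lie right of the band on both arrays and 1 probe of Mcl1 lies left of the lower dotted line.

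Bcl2, the founding prosurvival member, was lower in the RNA labelled KO by its brightest probe (NM_009741, mm8 chr1:108365763-108365822). The levels were 1262 units in KO and 1531 in WT on the array with KO in Cy5, and 1164 in KO and 1581 in WT on the other. Both KO levels lay under both WT levels, with log2 ratios of -0.28 and -0.44 and a mean of -0.36. The 10 spots of this probe differed by an SD of 0.031 on each array. A probe for the second transcript (NM_177410), 174177 bases away, gave -0.30 (-0.25 and -0.36), close to the first. The remaining probe, on the cDNA clone AK077913, gave 0.20 and -0.10, so its sign changed with the dye. Bcl2 was not called at 1.5-fold by any of its 3 probes.

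Mcl1 encodes a short-lived prosurvival protein, and its probes disagreed. The brightest (NM_008562, mm8 chr3:95748337-95748396) was at 7252 units in KO and 7771 in WT on the array with KO in Cy5 and at 7469 in KO and 7727 in WT on the other, a mean log2 ratio of -0.07. A second probe for the same transcript, 1312 bases upstream, read 2973 in KO and 4514 in WT on the first array and 2784 in KO and 4576 in WT on the other. Its log2 ratios were -0.60 and -0.72, a mean of -0.66 or 63.3% of WT, the only probe of any member called lower at 1.5-fold. Neither probe was dim in either genotype. In the RNA labelled KO the Mcl1 transcript was therefore near that of WT or clearly under it depending on the probe, and why the probes differ was not tested.

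**Figure D2:**
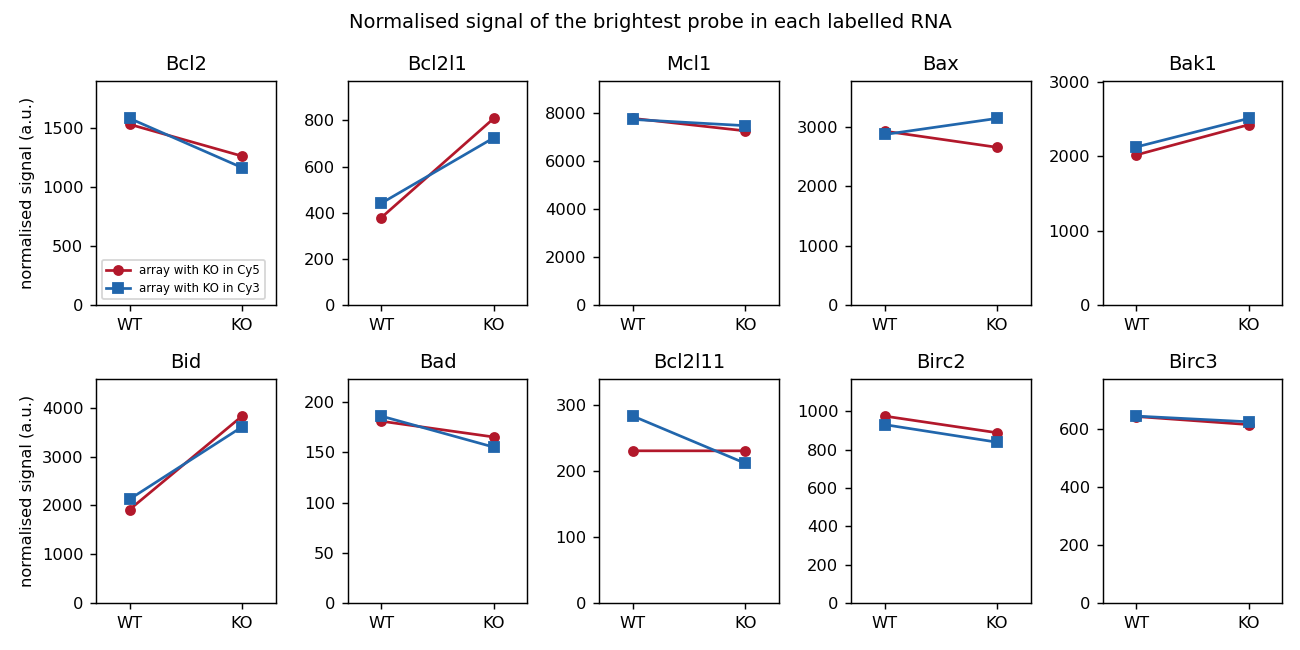
Normalised signal in arbitrary units of the brightest probe of each member in the WT and KO RNA, with a line for each array (circles, KO in Cy5; squares, KO in Cy3) and each vertical axis starting at 0. The lines of Bcl2l1 and Bid climb from WT to KO on both arrays, those of Bcl2 descend on both, and those of Bax cross.

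The effectors Bax and Bak1, which form the pore, had ratios within 1.5-fold. Bax (NM_007527) read 2651 units in KO and 2923 in WT on the array with KO in Cy5, and 3137 in KO and 2867 in WT on the other. The order of the genotypes turned with the dye, with log2 ratios of -0.14 and 0.13 and a mean of -0.01. Its 10 spots differed by an SD of only 0.018 on the first array and 0.019 on the other, so the difference between the arrays exceeded the spread within them. Bax was the 1 member of 10 with opposite signs on the arrays. Bak1 (NM_007523) was 0.25 on its brightest probe, with 0.26 and 0.24 on the arrays, where the levels were 2422 in KO against 2016 in WT and 2506 in KO against 2123 in WT. Its dimmer probe, 1265 bases away, gave 0.00 with opposite signs on the arrays (0.07 and -0.07).

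Of the other BH3-only genes, Bcl2l11 encodes Bim, an activator of the effectors. Its brightest probe (NM_207680) read 231 units in KO and 231 in WT on the array with KO in Cy5, but 212 in KO and 283 in WT on the other. The log2 ratios were -0.00030 and -0.42, so the lower mean of -0.21 came from 1 array. Only 3.28% of probes differed as much between the arrays. A second probe was not well above background in KO on either array and was above it in WT on 1 of 2 arrays. Its bound put Bcl2l11 1.23-fold lower in KO, close to the probe's own 1.24-fold. The bound makes no allowance for error, so it is not a firm minimum. This bound sets the level in WT against the higher of the lowest signal flagged above background and the probe's own, per array. The remaining probe was not well above background in either genotype.

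Bad, a BH3-only protein that growth factor signalling holds inactive by phosphorylation, was slightly lower on both of its probes. The brighter one, on the cDNA clone AK029400, read 165 units in KO and 181 in WT on the array with KO in Cy5 and 155 in KO and 186 in WT on the other, a mean log2 ratio of -0.20. That probe lies on the minus strand, 8976 bases from the other, and 3601 bases from a probe of Plcb3 on the same minus strand, named here for its place. The probe for the Bad transcript itself (NM_007522) lies on the plus strand and gave -0.15 (-0.13 and -0.18). The value of -0.20 may thus belong to another transcript, and -0.15, just beyond the SD of a single array, is the one read from the Bad transcript.

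The IAPs Birc2 and Birc3 neighbour each other on chromosome 9. Birc2 (NM_007465) read -0.14, from -0.13 and -0.15 on the arrays, with levels of 889 in KO against 976 in WT and of 839 in KO against 931 in WT. Birc3 (NM_007464) had -0.05, with -0.06 and -0.04, and its second probe had -0.08. For Birc3 the levels were 614 in KO against 642 in WT and 624 in KO against 643 in WT. The arrays differed by less for both genes than for most probes: 93.1% of probes differed by at least as much as that of Birc2 and 91.4% by at least as much as the brightest of Birc3. Both arrays put both genes on the lower side in KO, Birc2 just beyond the SD of a single array and Birc3 within it. Their symbols have been exchanged in the past, and the reference table still lists each among the synonyms of the other.

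Over all 10 members the median log2 ratio was -0.06, beside -0.0037 over the 15877 genes above background, and the members ranged from -0.36 to 0.90. The direction was the same on both arrays for 9 of 10 members, beside 81.7% of all genes. By role, the 3 prosurvival genes ranged from -0.36 to 0.90 and the 3 BH3-only genes from -0.21 to 0.88, so that each of these groups held both a called gene and genes on the lower side. All 10 members were above background. Among the 20 probes 18 were above background in both genotypes, 3 were called higher and 1 lower at 1.5-fold, and 4 changed sign with the dye.

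**Figure D3:**
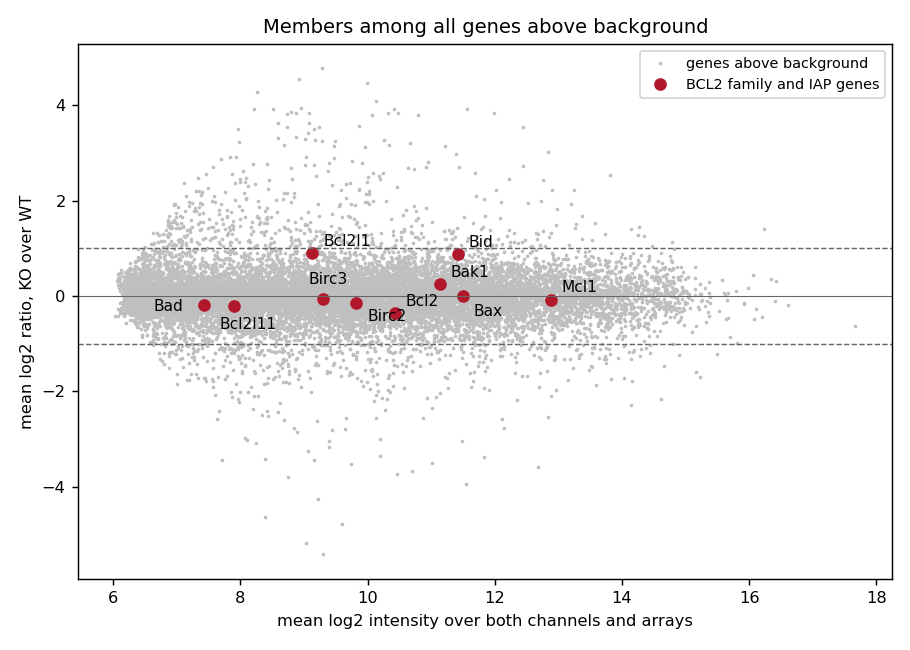
Mean log2 ratio of the RNA labelled KO over the RNA labelled WT (vertical) against mean log2 intensity (horizontal) for the 15877 genes above background in grey and the 10 members in red. Dashed lines mark 2-fold; Bcl2l1 and Bid lie just under the upper line and all other members lie between -0.36 and 0.25.

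The other genes of the apoptosis pathway were taken from a list by role. Of 63 measured 50 were above background, of which 3 were called higher and 2 lower at 2-fold, beside 2.95% and 2.61% of all genes. At 1.5-fold the same numbers were called, beside 7.04% and 7.17% of all genes. These counts are small, and nothing particular to the list or to a role in it is read from them. The median log2 ratio was 0.02. With median centring none of the 5 was called at 2-fold, while their mean log2 ratios stayed at 1.34 for Fas, 1.298 for Casp12, 1.04 for Tnfrsf10b, -1.13 for Pmaip1 and -1.51 for Ywhaz. The death receptors held 2 of the called genes. Fas, which recruits caspase-8 through an adaptor, stood at 1.32 (1.47 and 1.17), or 2.50-fold higher, while its other probe read 0.45. With the mean over both probes it was at 0.88 and was not called at 2-fold. Tnfrsf10b, the mouse receptor for TRAIL, stood at 1.04 (1.0009 and 1.08), and its other probes read 1.20 and 1.07. Tnfrsf1a, a receptor for TNF, was at 0.47 and was not called. All 4 receptors measured were above background with positive ratios, from 0.43 to 1.32, and none of the 3 ligands was well above background.

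Among the caspases, Casp12, an inflammatory caspase tied to the endoplasmic reticulum, was called higher at 1.28 (1.40 and 1.17), and of the other 7 above background none was called. The lowest of these was Casp2 at -0.55. By brightest probe the 3 apoptosome genes, cytochrome c (Cycs) among them, lay between -0.44 and -0.12. For Cycs the sign depended on the probe: the brightest read -0.18 and the others 0.10 and 0.12. The 7 receptor adaptors lay between -0.48 and 0.23, and none was called.

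On the lower side, Pmaip1 (Noxa), a BH3-only protein that binds Mcl1, had 45.8% of its WT level, or -1.13 on the log2 scale, from -1.10 and -1.15. It was the 1 gene called of the 5 other BH3-only genes above background, which ranged up to 0.37. Ywhaz, a 14-3-3 protein that holds phosphorylated Bad in the cytosol, was the lowest of the list at -1.57 (-1.73 and -1.41), or 33.8% of WT. Another probe of the same transcript, on chromosome 15 like the brightest, read -0.66, so the size of that difference depended on the probe. The remaining probe assigned to Ywhaz read -0.04, but it lies on chromosome 1 and was not well above background in either genotype. With the mean over all its assigned probes Ywhaz was at -0.76 and was not called at 2-fold. That mean includes the dim probe on chromosome 1, and a mean without it was not taken. Bag3, a chaperone partner of Bcl2, stood at -0.56 and was not called.

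Of the other IAPs 4 of 8 were above background and none was called. Birc5 (survivin), which also serves in cell division, was the lowest of them at -0.56. Htra2, a mitochondrial protease that antagonises IAPs, was the highest of the 3 IAP antagonists at 0.60, just short of 1.5-fold on 1 array. The 3 VDAC channels of the outer mitochondrial membrane lay between -0.23 and 0.42. Of the 4 other prosurvival genes only Bcl2l2 was above background, at 0.21.

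**Figure D4:**
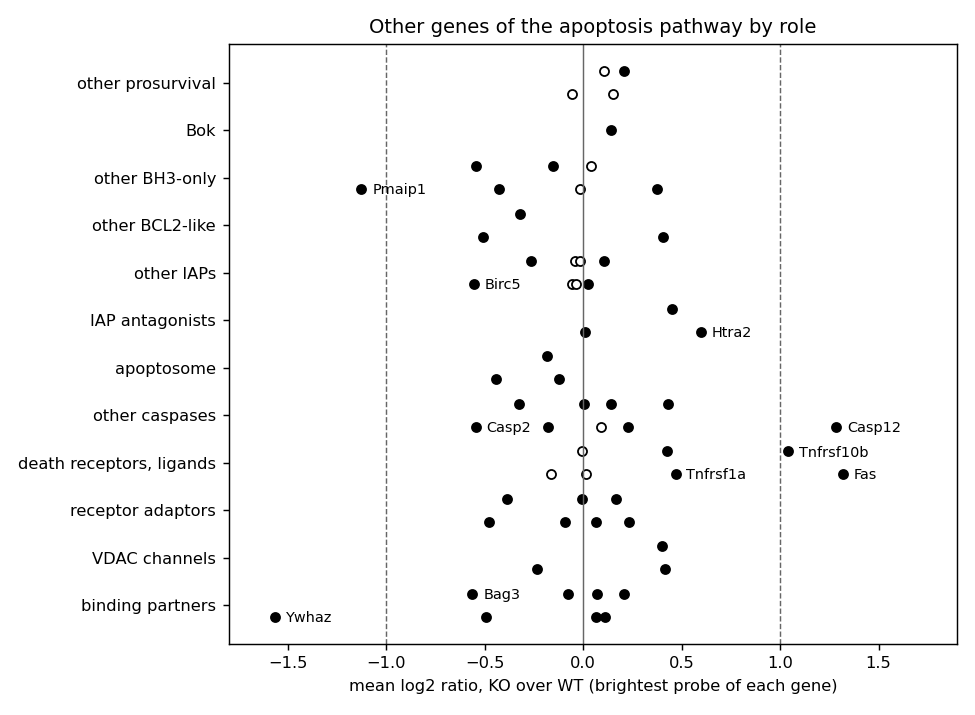
Mean log2 ratio of the RNA labelled KO over the RNA labelled WT (horizontal) for the 63 other apoptosis genes, each by its brightest probe and grouped by role; filled points are above background and open points are not, and dashed lines mark 2-fold. Fas, Casp12 and Tnfrsf10b lie right of the upper line and Ywhaz and Pmaip1 left of the lower one; the other named points are the remaining genes among the 5 highest and 5 lowest.

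The calls of Bcl2l1 and Bid at 1.5-fold held in 7 of 8 other ways of processing the arrays. Each array alone was among these, where the calls were certain to hold because the rule already required both arrays. The deposited table nearly repeats Feature Extraction's ratio, and for Bid, with a single probe, the mean over probes is the same value. The exception was median centring in place of loess, which leaves in each array the part of the dye effect that varies with intensity. There Bcl2l1 read 1.77 on one array and 0.02 on the other and Bid read 1.89 and -0.05, so neither was called, while their means, 0.90 and 0.92, hardly moved. With the mean over all its probes in place of the brightest, Bcl2l1 was at 0.67, Bcl2 at -0.20 and Mcl1 at -0.37.

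**Figure D5:**
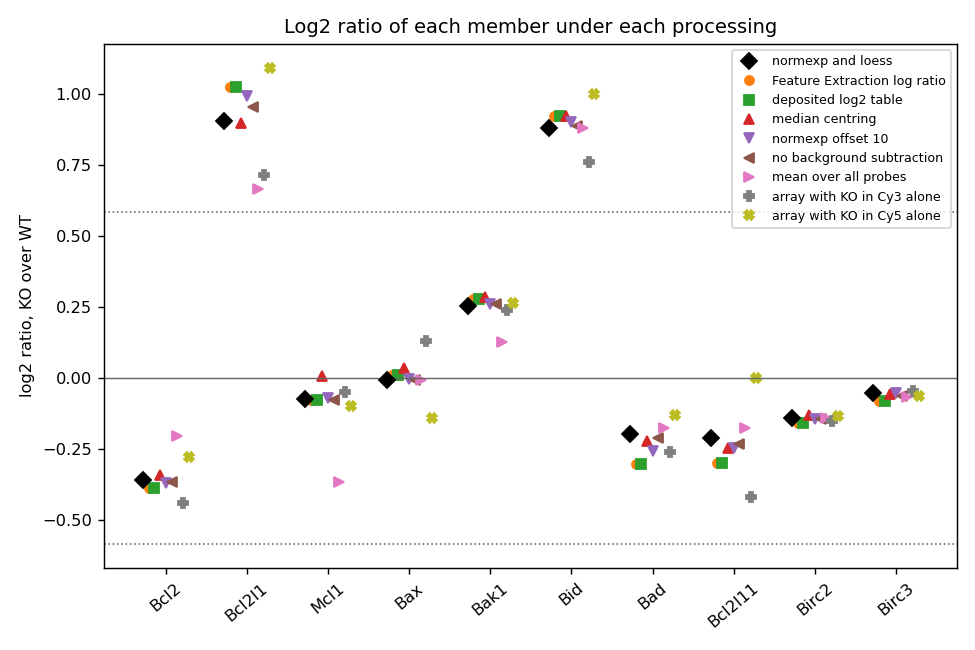
Log2 ratio of the RNA labelled KO over the RNA labelled WT (vertical) for each member under the processing used here (black diamonds) and 8 alternatives, with dotted lines at 1.5-fold. All points of Bcl2l1 (0.67 to 1.09) and Bid (0.76 to 1.0004) lie above the upper dotted line and no point of another member reaches either line.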

How the data were processed

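Total RNA of Lats2-/- and Lats2+/+ MEFs was labelled with Cy5 or Cy3 and hybridised in pairs to 2 Agilent arrays. Per the file headers, the authors read the spots with Agilent Feature Extraction 10.5.1.1 and deposited mean signals and local backgrounds as intensity. The same deposited files hold log10 ratios of Cy5 over Cy3, and a table the authors deposited holds log2 ratios that were already turned to KO over WT on both arrays. Other columns of the deposited files used here are flags. Both arrays shared 1 slide and 1 scan, so the slide could not be fitted as a block.

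Backgrounds were removed by normexp with an offset of 50 (limma 3.58.1, R 4.3.3), and intensities were normalised by loess within each array. Control spots (1639 of 45018) and spots with an outlier flag (390 and 378) were left out, spots of a probe were averaged, and the second array was turned. For probes spotted repeatedly, the background flag had to be set in a share of at least 0.5 of the spots. Levels are channel values after loess and Aquantile. Median signals were 96.8 in Cy5 and 60.1 in Cy3 on one array and 98.5 and 58.2 on the other, over backgrounds of 30 to 36, and no spot was saturated. The number of arrays limits the precision.

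The genes named are all members, the other apoptosis genes called at 2-fold or among the 5 highest and 5 lowest above background, Lats2 and cell type markers. Bcl2l13, Bcl2l2, Plcb3 and Cycs were added after their values were seen. Members and lists were chosen with earlier results of these data known. Probe positions are those of the files (mm8). Of the 20 member probes, 16 had an accession in a RefSeq table (GRCm38.p6, used for names), and none had another symbol there. A dye swap with known changes, planted in probes above background, was simulated with the dye curves and noise of these arrays. Its outcome is not reported here, and it holds no variation between cultures. Plots were drawn in matplotlib 3.10.9, and tables and tests used pandas 2.3.3, statsmodels 0.14.6, scipy 1.17.1 and numpy 2.4.6 under Python 3.11.15. The alternatives were Feature Extraction's ratio, the deposited table, median centring, an offset of 10, no background subtraction, the mean over probes, each array alone, no background flag, the flag in both genotypes, the methods' t-test and limma.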

Additional observations from a re-analysis of the deposited data

How the results depend on the processing

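No paired analysis was possible because the labels name no separate replicates and both arrays were counted as 1. Of the members' log2 ratios recomputed under the alternatives, 73 moved by less than the spread between the arrays, 7 moved further, and no called member changed sign. Of the members within the spread between arrays, Mcl1 changed sign with median centring (0.0067), and Bax with median centring (0.04), Feature Extraction's ratio (0.01), the deposited table (0.01) and the array with KO in Cy3 alone (0.13). The deposited table and the ratio of Feature Extraction gave the same counts: 941 genes were called higher and 866 lower at 2-fold and 1804 and 1900 at 1.5-fold, and of the other apoptosis genes 5 were called higher and 4 lower at 1.5-fold. With median centring 250 genes were called higher and 138 lower at 2-fold and 458 and 342 at 1.5-fold; of the other apoptosis genes 0 were called at 2-fold, and 0 higher and 1 lower at 1.5-fold, and 0 members were called higher at 1.5-fold. With the mean over all probes Bcl2 was at -0.20, Bcl2l1 at 0.67 and Mcl1 at -0.37, and of the other apoptosis genes 2 were called higher and 1 lower at 2-fold. On single arrays Bcl2l1 was at 0.71 to 1.09, Bcl2l11 at -0.42 to -0.00030, 0 to 2 members were called higher at 2-fold (2 on the array with KO in Cy5) and 4 to 6 other apoptosis genes lower at 1.5-fold. The methods' t-test, which compares the RNAs hybridised and not the genotypes, called 1 other apoptosis gene higher and 1 lower at 2-fold with an unadjusted p under 0.05, beside 408 and 358 of all genes. After Benjamini-Hochberg adjustment it called 0 of either. The limma fit called 517 genes higher and 489 lower, 3 and 2 of them other apoptosis genes. It takes both arrays as replicates, so it too compares the RNAs hybridised and its counts are not evidence of a genotype difference. No member was called at 2-fold by either test. Without biological replicates, the variation between cultures is unknown, and a probe not well above background, as for 2 of the 3 of Bcl2l11, gives at most a bound.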
